A study of Mus musculus with 2 samples.

Results

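The genes of iron uptake, storage and export were examined in brown preadipocytes (D0) and differentiated brown adipocytes (D7). The 10 genes were taken by symbol from the deposited table of FPKM (fragments per kilobase of transcript, scaled to the library total): Trf, Tfrc, Fth1, Ftl1, Slc40a1, Slc11a2, Slc39a14, Ireb2, Steap3 and Steap4. All 10 had a value above 0 in both libraries, of 23361 genes with values. RNA-Seq had been performed on cells isolated from newborn C57BL/6 mice, from their interscapular brown adipose tissue, with 1 library at D0 and 1 at D7. According to the labels, cells were kept for 4 days in medium with insulin at 0.1 μM and T3 at 1 nM. From day 0, IBMX at 0.5 mM, indomethacin at 0.125 mM and dexamethasone at 2 μg per ml were added for 2 days, and insulin and T3 alone followed up to D7. The labels start both libraries from primary brown preadipocytes and name no immortalization, whereas the methods of the study describe cells immortalized with large T and other amounts of insulin and dexamethasone. The methods give C57BL/6J as the strain of the dam and newborn mice of either sex, and do not state whether their cells were pooled.

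Iron travels in plasma bound to transferrin (Trf), and cells take it up when transferrin binds its receptor (Tfrc) and both are internalised. In the endosome, ferric iron is reduced by a metalloreductase of the Steap family and leaves through the divalent metal transporter Slc11a2. Iron not bound to transferrin can enter through Slc39a14. Iron that is not used is stored in ferritin, a shell of heavy (Fth1) and light (Ftl1) chains, and Slc40a1 (ferroportin) exports it. Iron regulatory proteins, encoded by Aco1 and Ireb2, bind a hairpin called the iron-responsive element when iron is scarce. Bound in a 5′ UTR the hairpin blocks translation, and bound in a 3′ UTR it protects the mRNA from decay. Brown adipocytes contain many mitochondria, whose respiratory chain needs iron in heme and in iron-sulfur clusters.

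Iron-responsive elements were searched in the 5′ and 3′ UTRs of the annotated coding transcripts, because iron regulatory proteins bind this hairpin. A match in sequence alone shows neither binding nor control by iron, and neither was measured. The search asked, on the transcript strand, for a loop of 6 bases, CAGTG followed by any base but G. An upper stem of 5 pairs closed the loop, with an unpaired C below that stem. Below the C, at least 4 of 5 pairs were required in the lower stem. Pairs of G with T were counted, and the lower stem could skip a base on its 5′ side. The search found an element in 19 of 21901 coding genes, which is 0.0868%, with UTRs of very different length. Of the 10 iron genes, 4 held an element. In each line below, the capitals mark the unpaired C and the loop of 6 bases, and the sequences come from the GENCODE M21 transcripts of mm10.
Fth1, 5′ UTR, plus strand, chr19:9982731-9982760: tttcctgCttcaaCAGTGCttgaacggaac
Ftl1, 5′ UTR, minus strand, chr7:45459779-45459808: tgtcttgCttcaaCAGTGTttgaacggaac
Slc40a1, 5′ UTR, minus strand, chr1:45925465-45925494: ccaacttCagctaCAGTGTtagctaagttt
Tfrc, 3′ UTR, plus strand, chr16:32631218-32631247: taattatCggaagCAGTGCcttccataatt
Tfrc, 3′ UTR, plus strand, chr16:32631597-32631626: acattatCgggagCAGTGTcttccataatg
Tfrc, 3′ UTR, plus strand, chr16:32631662-32631691: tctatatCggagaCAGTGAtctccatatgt
Tfrc, 3′ UTR, plus strand, chr16:32631709-32631738: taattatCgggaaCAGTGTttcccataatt

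The elements of the 2 ferritin chains had the same base at 27 of 30 positions, and each shared 13 of 30 positions with that of Slc40a1. The 4 elements that the search found in Tfrc lay within one 3′ UTR, starting 0, 379, 444 and 491 bases from the first. The other 6 iron genes held no such letters in their annotated UTRs. The element was annotated in 4 of 5 coding transcripts of Fth1, 1 of 2 of Ftl1, 1 of 4 of Slc40a1 and 1 of 3 of Tfrc. The table gives 1 value per gene, so transcripts with and without an element cannot be told apart, and FPKM does not measure translation.

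With 1 library per stage there is no spread between cultures, and no p-value can be given. Values were used as deposited. As in the methods of the study, a gene was called higher at a D7 to D0 ratio of at least 2.0 and lower at a ratio of at most 0.5. Genes with a single exon gave back the totals behind FPKM, 21471008 fragments in the D0 library and 18265710 in the D7 library. Intervals are exact 95% Clopper-Pearson intervals of the ratio from the recovered numbers of fragments. They compare these 2 libraries and leave out every error but that of counting. Numbers of fragments are approximate for genes with several exons.

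Trf, Tfrc, Fth1 and Steap4 were called higher at D7, and none of the 10 iron genes was called lower. Of all 14986 genes above 0 in both libraries, 18.5% were called higher and 13.2% lower. Among the 11967 of them that reached an FPKM of 1 in at least 1 library, as all 10 iron genes did, 15.6% were called higher and 11.9% lower. The median log2 ratio of the iron genes was 0.68, and that of all 14986 genes was 0.015. Ratios were above 1 for 8 iron genes and below 1 for Ftl1 and Slc39a14. In bulk RNA, a larger share of cells of one type and more RNA per cell cannot be told apart.

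**Figure D1:**
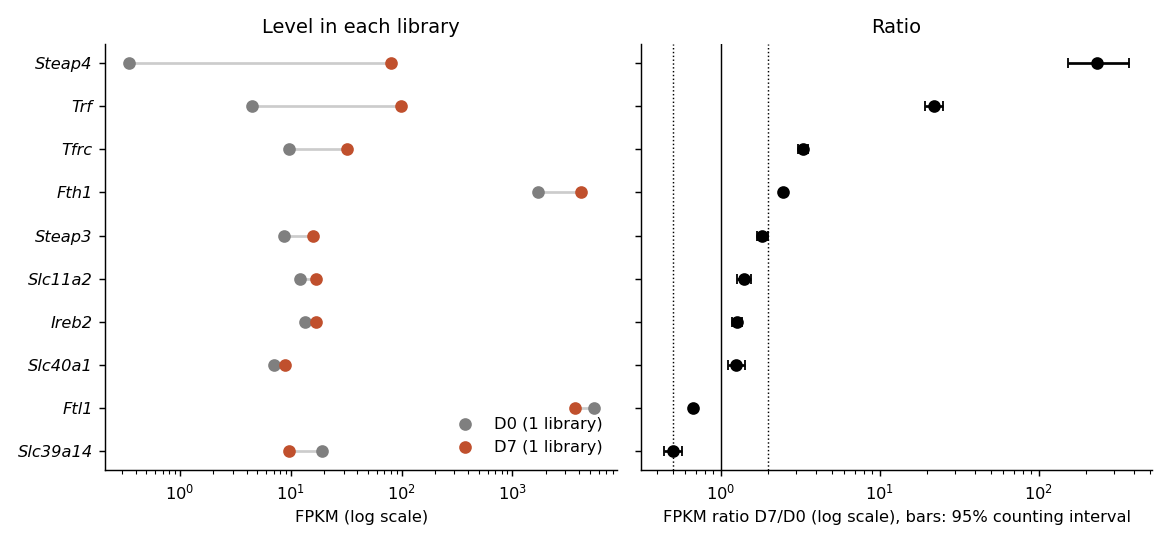
FPKM of the 10 iron genes at D0 (grey) and D7 (red) on a log axis (left), and the D7 to D0 ratio on a log axis with its 95% counting interval (right), 1 library per stage. Dotted lines mark ratios of 0.5 and 2. Steap4 (231) and Trf (21.9) lie far to the right of the other ratios, which range from 0.503 to 3.29.

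Trf encodes transferrin, the iron carrier of plasma (ENSMUSG00000032554.15, chromosome 9, 103204001 to 103230444, minus strand). Its FPKM was 4.52 at D0 and 99.1 at D7, from about 232 and 4326 fragments. The ratio of 21.9 (19.2 to 25.2) was the 236th highest of 14986. Trf was the 8461st gene by FPKM at D0 and the 883rd at D7. The annotated gene Gm20425 overlaps Trf on the same strand and holds 77.8% of the windows of 90 bases of its mRNA. Gm20425 has no value in the table, and reads in the shared windows cannot be assigned to one of these genes by their sequence. Albumin (Alb) and transthyretin (Ttr), defining genes of hepatocytes, which are the main source of plasma transferrin, were listed at 0 in both libraries.

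The receptor of transferrin, Tfrc (ENSMUSG00000022797.16, chromosome 16, 32608920 to 32632794, plus strand), had an FPKM of 9.71 in preadipocytes and 31.95 in adipocytes. About 982 and 2748 fragments stood behind these values, and the ratio was 3.29 (3.06 to 3.54). No other annotated gene overlaps Tfrc, and none of its windows of 90 bases occurs in another gene. At D0 the FPKM of Trf was 0.466 times that of Tfrc, and at D7 it was 3.10 times that of Tfrc. Tfr2, a related receptor named here after its values were seen, had 2.42 FPKM before and 3.17 FPKM after differentiation, so that Tfrc was the higher of the receptor genes in both libraries.

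Steap4, a metalloreductase that reduces iron and copper (ENSMUSG00000012428.9, chromosome 5, 7960457 to 7982213, plus strand), showed the highest ratio of the iron genes. About 22 fragments at D0 gave it an FPKM of 0.346, and about 4350 at D7 gave 80.1. The ratio of 231 (153 to 372) was the 49th highest of 14986, and it was 60.3 when 1 was added to each FPKM. Steap3, the reductase known from the endosomes of erythroid precursors (ENSMUSG00000026389.16, chromosome 1, 120190757 to 120272705, minus strand), had a D0 value of 8.75 FPKM against 16.04 FPKM at D7. Its ratio of 1.83 (1.69 to 1.99) was above 1 and under 2.0.

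The other genes of the Steap family had the opposite direction. Steap1 had an FPKM of 15.5 in preadipocytes and 2.49 in adipocytes, giving a ratio of 0.160 (0.117 to 0.218). Steap2 had 10.2 FPKM before and 5.06 FPKM after differentiation, and the interval of its ratio of 0.495 (0.440 to 0.557) includes 0.5. The summed FPKM of the 4 genes was 34.9 at D0 and 103.7 at D7. Steap1 made up 44.6% of this sum at D0 and 2.40% at D7, while Steap4 made up 0.993% and 77.2%. The leading gene of the family by FPKM, which does not measure reductase activity, was therefore Steap1 at D0 and Steap4 at D7. Cybrd1, a reductase of the gut, was close to the limit of detection with about 6 fragments in each library.

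**Figure D2:**
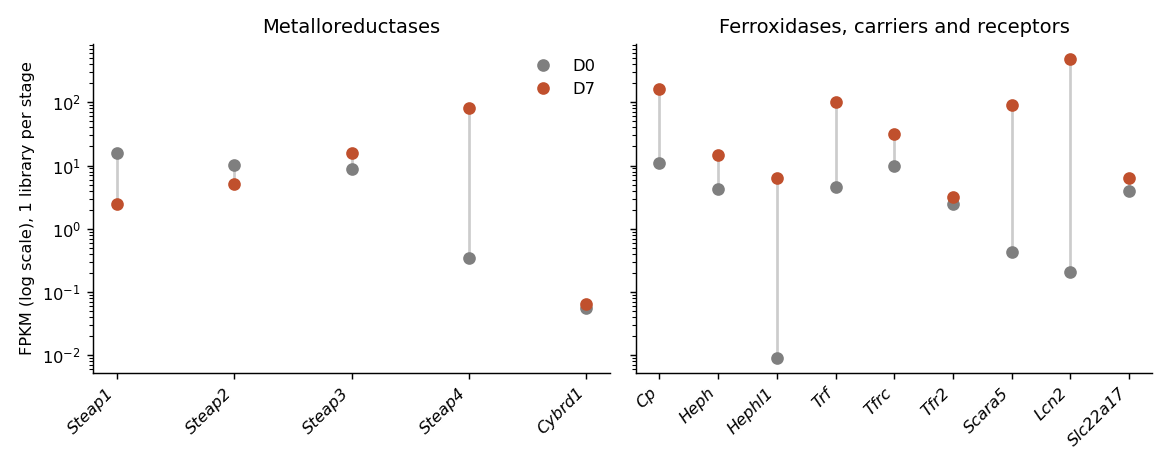
FPKM on a log axis at D0 (grey) and D7 (red) of the Steap genes and Cybrd1 (left) and of ferroxidases, carriers and receptors of iron (right), 1 library per stage. Steap1 and Steap2 are lower at D7 and Steap4 is higher, and the D0 values of Hephl1 and Lcn2 rest on about 1 and 3 fragments.

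The ferritin genes were among the most highly expressed genes in both libraries. Fth1, the heavy chain that oxidises ferrous iron (ENSMUSG00000024661.7, chromosome 19, 9980598 to 9985098, plus strand), had a D0 value of 1694 FPKM against 4163 FPKM at D7, with a D7 to D0 ratio of 2.46 (2.42 to 2.49). It was the 32nd gene by FPKM at D0 and the third at D7. Ftl1, the light chain that helps to build the iron core (ENSMUSG00000050708.16, chromosome 7, 45457944 to 45459884, minus strand), had an FPKM of 5407 in preadipocytes and 3637 in adipocytes. Its ratio was 0.673 (0.666 to 0.680), and it was the second gene by FPKM at D0 and the sixth at D7. Fth1 was no longer called higher (ratio 1.93) when a floor of 0.01 FPKM was applied and libraries were scaled to equal medians over all genes.

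The balance of the chains thus differed between the stages. FPKM of Fth1 was 0.313 times that of Ftl1 at D0 and 1.14 times at D7. This quotient, which no scaling between the libraries can move, was 3.65-fold higher at D7 (Wald 95% interval 3.59 to 3.72 from fragments). The authors had removed duplicate reads, and the effect of that removal on such abundant genes was not tested. The heavy chain made up 23.9% of the summed FPKM of both chains at D0 and 53.4% at D7. The summed FPKM of both chains was 7100 at D0 and 7800 at D7, a 1.10-fold difference, and held 1.39% of the FPKM of all genes at D0 and 1.49% at D7. Of the windows of 90 bases of the Ftl1 mRNA, 64.3% occur in other annotated genes, among them the copies Ftl1-ps1, Ftl1-ps2 and Ftl2-ps. Ftl1-ps1 also carries the same iron-responsive element. Only 2.14% of the windows of Fth1 occur elsewhere, in Gm6977. How the authors assigned reads with several matches is not given in the sources used here, so the level of Ftl1 is uncertain.

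**Figure D3:**
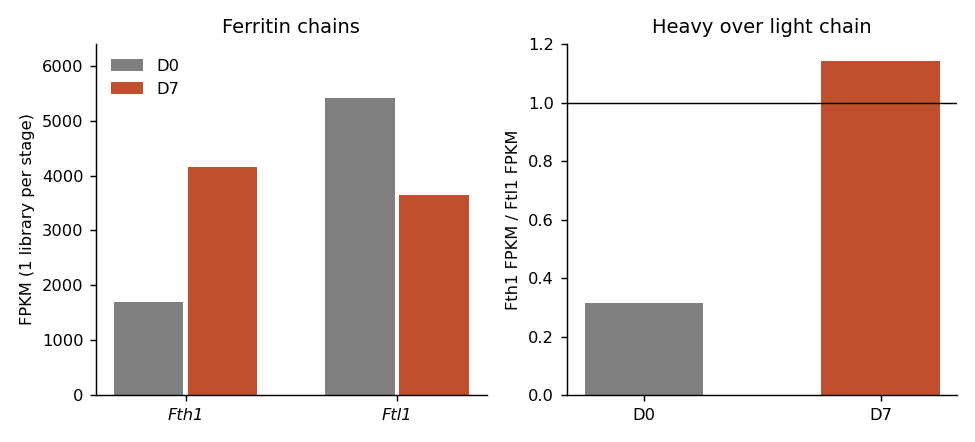
FPKM of the ferritin heavy chain (Fth1) and light chain (Ftl1) at D0 (grey) and D7 (red) on linear axes (left), and the quotient of Fth1 to Ftl1 in each library (right, with a line at 1), 1 library per stage. The quotient is 0.313 at D0 and 1.14 at D7.

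The transporters were not called in either direction. Slc11a2, which carries ferrous iron out of the endosome (ENSMUSG00000023030.16, chromosome 15, 100387898 to 100425072, minus strand), had 12.02 FPKM before and 16.9 FPKM after differentiation, giving a ratio of 1.41 (1.27 to 1.55). The exporter Slc40a1 (ENSMUSG00000025993.10, chromosome 1, 45908068 to 45926523, minus strand) had a D0 value of 7.13 FPKM against 8.94 FPKM at D7, with a D7 to D0 ratio of 1.25 (1.11 to 1.42). Its direction depended on the scaling, since the ratio was 0.982 after the floor of 0.01 and division by the library median. Slc39a14, an importer of iron, zinc and manganese (ENSMUSG00000022094.15, chromosome 14, 70303469 to 70351425, minus strand), had an FPKM of 19.1 in preadipocytes and 9.60 in adipocytes. It was the only one of the 3 that was lower at D7, and its ratio of 0.503 (0.441 to 0.572) lay just above 0.5, so that it was not called lower. Under 4 of 9 settings, all of them scalings between the libraries, it passed 0.5. The related Slc39a8 had 4.84 FPKM before and 2.90 FPKM after differentiation, giving a ratio of 0.6001 (0.499 to 0.723).

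Ireb2 encodes iron regulatory protein 2 (ENSMUSG00000032293.8, chromosome 9, 54863789 to 54912530, plus strand). Its FPKM was 13.3 at D0 and 16.9 at D7. The ratio of 1.27 (1.18 to 1.36) became 0.993 after the floor and division by the library median, so that no direction can be given. Aco1, which encodes iron regulatory protein 1 and also serves as the cytosolic aconitase, had a D0 value of 19.6 FPKM against 61.5 FPKM at D7, with a D7 to D0 ratio of 3.13 (2.95 to 3.32). The FPKM of Aco1 was 1.47 times that of Ireb2 at D0 and 3.64 times at D7. Fbxl5, whose protein directs the breakdown of iron regulatory proteins when iron is plentiful, had a ratio of 2.17 (2.03 to 2.31).

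The order of the iron genes by FPKM was not the same in both libraries. At D0 it was Ftl1, Fth1, Slc39a14, Ireb2, Slc11a2, Tfrc, Steap3, Slc40a1, Trf and Steap4, and at D7 it was Fth1, Ftl1, Trf, Steap4, Tfrc, Slc11a2, Ireb2, Steap3, Slc39a14 and Slc40a1. Exact Poisson 95% intervals overlapped between Ireb2 and Slc11a2 and between Tfrc and Steap3 at D0. At D7 they overlapped between Slc11a2 and Ireb2, between Ireb2 and Steap3 and between Slc39a14 and Slc40a1. Trf and Steap4, the lowest of the 10 at D0, thus came directly after ferritin at D7. Apart from ferritin, the levels ran from 0.346 to 19.1 at D0 and from 8.94 to 99.1 at D7.

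Another 15 genes of iron entry, reduction and oxidation were listed for comparison. Of these, 6 were called higher, 2 (Steap1 and Steap2) were called lower, 6 lay between the thresholds, and lactoferrin (Ltf) was listed at 0 in both libraries. Their median log2 ratio was 0.53 (all genes above 0 in both libraries: 18.5% called higher, 13.2% lower). The highest ratios belonged to genes that were almost silent at D0. Lcn2, whose product binds iron-laden siderophores, had 0.207 FPKM at D0 on about 3 fragments and 483.6 FPKM at D7, giving a ratio of 2333 (871 to 12356). Scara5, a receptor for ferritin, had 0.425 FPKM at D0 on about 28 fragments and 91.4 FPKM at D7, with a D7 to D0 ratio of 215 (149 to 326). At D7, Scara5 was thus at a level near that of Steap4 and Trf. Slc22a17, described as a receptor of Lcn2, had an FPKM of 4.01 in preadipocytes and 6.40 in adipocytes.

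The multicopper ferroxidases, which oxidise iron so that transferrin can bind it, were all called higher. Cp (ceruloplasmin) had 11.1 FPKM before and 160.4 FPKM after differentiation, giving a ratio of 14.5 (13.5 to 15.5). Heph (hephaestin) had a D0 value of 4.22 FPKM against 14.6 FPKM at D7, with a D7 to D0 ratio of 3.45 (3.05 to 3.91). Hephl1 had 0.00916 FPKM at D0 on about 1 fragment and 6.28 FPKM at D7, and its ratio of 686 has an interval from 123 to 27130. The 3 genes together had an FPKM of 15.3 in preadipocytes and 181.3 in adipocytes, whereas the exporter Slc40a1, with which they work, had at most 8.94 FPKM. Hps3 overlaps Cp and Hsf3 overlaps Heph on the opposite strand. The methods describe enzymatic removal of the second cDNA strand, which keeps strand, but whether strand was used in counting is not given in the sources used here. Gm14935 and Rpl17-ps8 overlap Heph on the same strand, so that strand could not separate their reads. Cp and Heph were named after their values were seen.

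Among 10 genes of iron sensing and of the hepcidin axis, 7 had values above 0 in both libraries. Of these, 6 were called higher and Hif1a was called lower, with a median log2 ratio of 1.65 (all genes: 18.5% higher, 13.2% lower). Epas1, the hypoxia-inducible factor 2α, had 2.01 FPKM before and 24.8 FPKM after differentiation, giving a ratio of 12.4 (10.8 to 14.2). Hif1a, its relative, had a D0 value of 101.6 FPKM against 34.8 FPKM at D7, with a D7 to D0 ratio of 0.342 (0.328 to 0.357). Hfe, a membrane protein that binds the transferrin receptor, had a ratio of 2.80 (2.51 to 3.14), and Bmp6, the ligand that raises hepcidin in the liver, had a ratio of 3.53 (2.91 to 4.32). Hepcidin itself (Hamp and Hamp2) was listed at 0 in both libraries. Tmprss6 was called on about 1 and 19 fragments, and Hjv, with about 1 fragment at D7 and none at D0, has no ratio.

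The 5 genes of iron chaperones and ferritin turnover all lay between the thresholds, with a median log2 ratio of -0.063. Ncoa4, the receptor that delivers ferritin to autophagy, had an FPKM of 38.0 in preadipocytes and 49.8 in adipocytes, giving a ratio of 1.31 (1.25 to 1.38). Pcbp1, a chaperone that loads ferritin, had a ratio of 0.812 (0.777 to 0.848). Pcbp2 had a ratio of 0.958, and its interval from 0.916 to 1.001 includes 1. Glrx3 had a ratio of 0.980, with an interval from 0.929 to 1.03 that includes 1. Bola2, its partner, had the lowest ratio of the list, 0.591.

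Of 19 genes of mitochondrial iron and iron-sulfur cluster assembly, 18 were above 0 in both libraries. Of these, 7 were called higher and none was called lower, with a median log2 ratio of 0.81 (all genes: 18.5% higher, 13.2% lower). The highest ratios were those of Iba57 (3.03) and Isca2 (2.84), which act late in cluster assembly. The lowest were those of Fdx2 (0.650), the mitochondrial iron importer Slc25a37 (0.790) and Hscb (0.895). Nfs1, the cysteine desulfurase that supplies the sulfur, had a ratio of 1.99 (1.83 to 2.17). Mitochondrial ferritin (Ftmt) was listed at 0 in both libraries. All 11 enzymes of mitochondria that carry iron-sulfur clusters were called higher, with a median log2 ratio of 1.98. The lowest ratios were those of Ndufs8 (2.30) and Ndufv2 (2.98), subunits of respiratory complex I, and of Sdhb (3.14), a subunit of complex II. Toward the high end were Uqcrfs1 (6.29), the Rieske protein of complex III, and Ndufv1 (5.56).

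**Figure D4:**
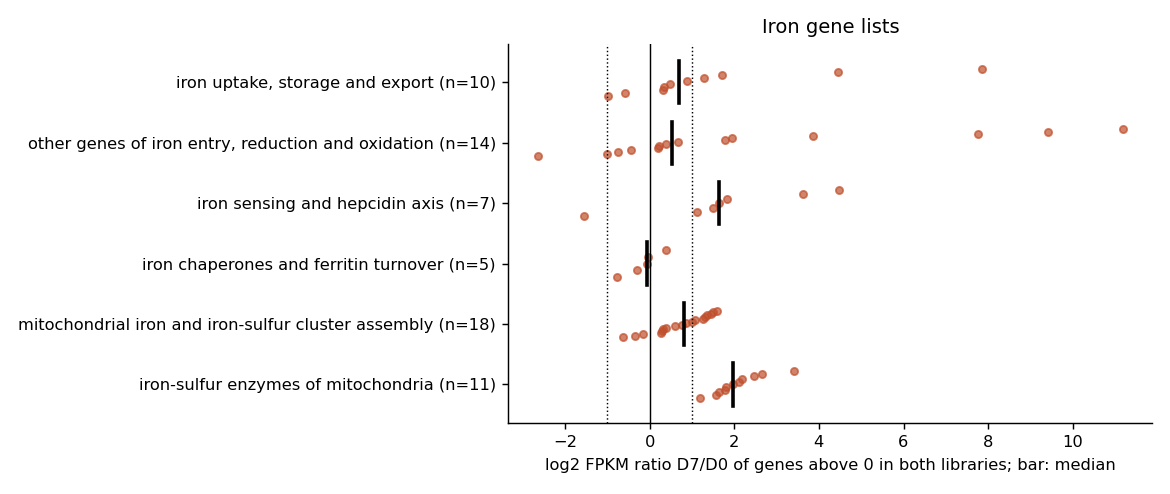
Log2 FPKM ratio of D7 to D0 for each gene above 0 in both libraries (points) in 6 lists of iron genes, with the median of each list (black bar) and dotted lines at 2-fold in each direction. The iron-sulfur enzymes all lie beyond 2-fold (median 1.98), the chaperones all lie within it (median -0.063), and the genes of uptake, storage and export spread from -0.99 to 7.85.

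The 10 transcripts known for an iron-responsive element did not share a direction. Of these, 4 were called higher, among them Tfrc, Fth1 and Epas1, and none was called lower. Their median log2 ratio was 0.41 (all genes above 0 in both libraries: 18.5% called higher, 13.2% lower). Alas2 rested on about 1 fragment in each library. The D7 to D0 ratio was below 1 for Ftl1, Cdc42bpa (0.619) and Cdc14a (0.899, with an interval from 0.534 to 1.49 that includes 1). Genes with the element in the 5′ UTR included both Fth1, called higher, and Ftl1, with a ratio below 1 that was not called, whose elements differ at only 3 of the 30 positions printed above.

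Markers of other cells and states also differed between the libraries. For comparison, 18.5% of all genes above 0 in both libraries were called higher and 13.2% lower. Of 8 brown adipocyte markers, 5 were called higher and Ucp1, Cidea and Elovl3 were listed at 0 at D0 only. Ucp1 reached an FPKM of 4.57 at D7. Of 12 macrophage markers, 11 were called higher, none was at 0, and their summed FPKM was 155.7 at D0 and 584.9 at D7. Macrophages also handle iron, and their part in the values of Trf, Slc40a1 and the other iron genes was not tested. Of 10 proliferation genes, 9 were called lower, and their summed FPKM was 121.5 at D0 and 50.6 at D7, opposite in direction to Tfrc, and their part in its value was not tested. Erythroid markers, whose cells are rich in Tfrc, had a summed FPKM of 0.277 at D0 and 0.459 at D7, and 7 of 10, including Hba-a1, were listed at 0 in both libraries. Endothelial markers summed to 1.58 and 2.62, and hepatocyte markers to 0.058 and 0.205. Of 5 preadipocyte markers, Pdgfrb and Thy1 were called lower and Cd34 was called higher.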

How the data were processed

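RNA-Seq libraries of D0 and D7 (1 each) were compared. The authors filtered the reads, removed duplicates and rRNA reads, aligned them to mm10 with SOAP2 (the submitters' processing notes name Bowtie2) and deposited FPKM for each gene in each library. Of 27324 rows, 3963 without values were left out. No pseudocount, rescaling or test was applied.

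Denominators were found from single-exon genes of at least 600 bp, after taking 179 bp (D0) or 182 bp (D7) from the length, so that FPKM gave whole fragments. All 81 (D0) and 89 (D7) values of up to 20 fragments lay within 0.1 of a whole number. With the length of the named transcript, 65.0% and 64.4% did in other genes. The denominator at D0 was 1.18 times that at D7.

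The iron genes and lists were chosen with earlier results of these data known. Named are all 10 iron genes and, of each other iron list, the 3 highest and 3 lowest ratios at an FPKM of at least 1 in 1 library and genes at 0. Cp, Heph, Tfr2, Slc22a17, Cybrd1, Hfe, Tmprss6, Nfs1, Cdc14a and the markers named were added after their values were seen. A few genes that the rule names are not reported here. Of 73 genes in the iron lists, 71 were found in the annotation, and 30 of these overlap another annotated gene. Symbols not found were looked up as synonyms in RefSeq (GRCm38.p6). Coordinates are those of GENCODE M21. Scripts were tested on simulated data. Statistics ran in scipy 1.17.1 under Python 3.11.15 with pandas 2.3.3 and numpy 2.4.6, and plots in matplotlib 3.10.9.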

Additional observations from a re-analysis of the deposited data

How the results depend on the processing

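Alternatives were pseudocounts of 0.1 and 1, division by the library median or upper quartile, TPM, a floor of 0.01 with division by the median of all values, a filter at an FPKM of 1, summing of rows with one symbol, and a 4-fold threshold. Of the 4 iron genes called higher, Trf, Tfrc and Steap4 were past 2.0-fold under all 9 settings of the ratio, and Fth1 under 8. The number of iron genes called higher was 3 with the floor, 2 at 4-fold and 4 under each other setting. The number called lower was 1 (Slc39a14) with the library median, the upper quartile, TPM and the floor, and 0 under the others. The median log2 ratio was 0.58 with the library median and 0.33 with the floor. The floor setting, which joins the floor with a scaling by the median of all 23361 values, lowered the log2 ratio of each iron gene by the same amount and put the median of all genes at -0.352. It called 2836 of 23361 genes higher and 3832 lower, with genes at 0 in 1 library included, against 2767 and 1980 of 14986 without it, whereas at 4-fold 1211 and 578 were called. With a pseudocount of 1, 1533 and 1021 of 23361 were called. No paired analysis was possible because each stage has 1 library, and no library could be left out. Depth limits Hephl1, Lcn2, Tmprss6, Cybrd1 and Hjv, which had 6 or fewer fragments at D0.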
